A study of Rattus norvegicus with 2 samples.

Results

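Complement regulators and anticoagulant proteins keep complement attack and blood clotting in check at cell surfaces and in fluids. The 9 genes named for this group were Cd55, Cd46, Cd59, Serping1, C1r, C1s, C3, Pros1 and Thbd. A gene was measured when the platform annotation gave a feature its symbol and no other, and the feature with the highest mean level stood for the gene. Of the 9 genes, 8 were found, each with 1 feature, among 18166 genes measured in all. No feature carried the symbol Cd59. The genes were chosen by function and by the differences of Cd55 and Pros1 on these same arrays, so their levels are given as a description.

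RNA came from 2 single colonies of the C6 line, rat glioma cells that were raised by a chemical carcinogen and serve as a model of malignant astrocytic tumours. They are called colony No.4 and colony No.8 after their labels. Both were labelled as undifferentiated glioma cells, and both carried the same protocol text: culture in DMEM with 10% serum, and treatment with CHIR99021 (an inhibitor of the kinase GSK3) at 20 µM and forskolin (an activator of adenylyl cyclase) at 100 µM for 35 days. The labels do not settle whether the RNA was taken before or after that treatment. Each colony was measured on 1 whole-transcript array, so each value is a single measurement, no test was possible, and a difference between colonies cannot be told apart from one between cultures or hybridizations. In such bulk RNA, fewer cells with a transcript and less transcript per cell cannot be told apart either.

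Complement is a cascade of plasma proteins that ends in opsonisation and in pores in the target membrane. The classical route starts with the proteases C1r and C1s bound to C1q, and all routes meet at C3. Host cells hold it back with membrane proteins: CD55 speeds the decay of the convertases, CD46 serves as a cofactor for cleaving C3b and C4b, and CD59 blocks the pore. SERPING1, the C1 inhibitor, inactivates C1r and C1s in fluid. Protein S, the product of Pros1, is the cofactor of activated protein C, and it also binds C4b-binding protein and activates receptor kinases of the TAM family. Thrombomodulin, the product of Thbd, turns thrombin towards activating protein C.

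Among the 8 genes, Cd55 and Pros1 were far higher in colony No.8, and the other 6 differed by -0.01 to 0.37 log2 units. Differences are given as No.8 minus No.4, and 1 log2 unit is 2-fold. A gene was past the floor when either colony reached 4.33, the median of all values on both arrays. That held for 5 of the 8 genes and for 11069 of the 18166 genes measured in all. Of those 5, 2 reached 2-fold towards No.8 and 0 towards No.4. Of the 11069 genes past the floor in the whole table, 2.91% reached 2-fold towards No.8 and 2.57% towards No.4. Because the group was built around Cd55 and Pros1, nothing is read from that contrast. The median difference over all 8 genes was 0.11, against 0.04 over all genes past the floor.

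**Figure D1:**
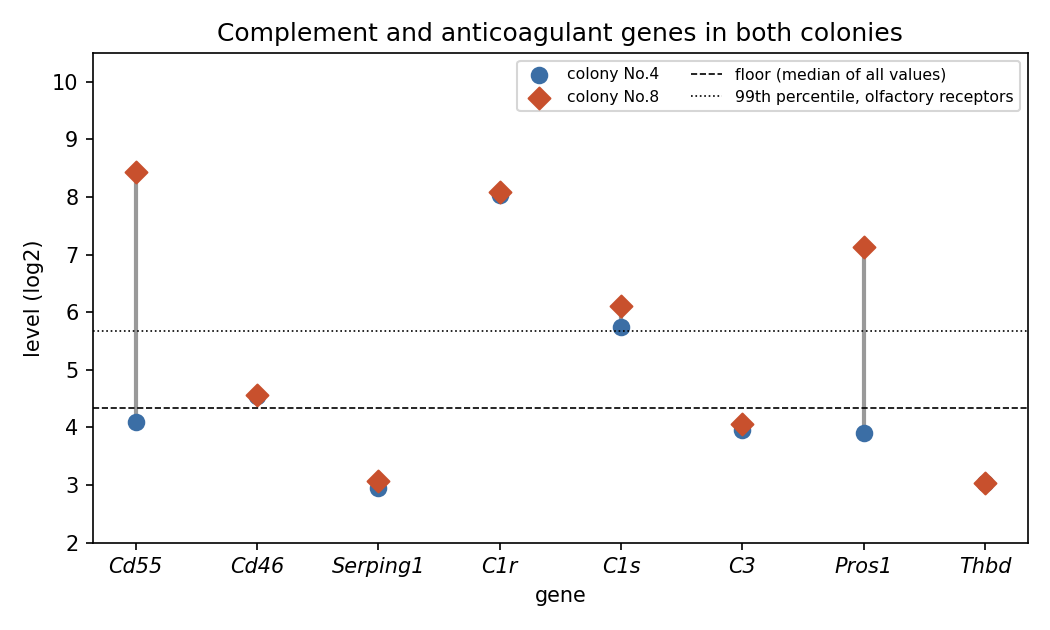
Level (log2) of the 8 measured genes in colony No.4 (circles) and colony No.8 (diamonds), 1 array each with no error bar. Cd55 and Pros1 lie below the floor of 4.33 (dashed) in colony No.4 and above 5.67 (dotted, 99th percentile of olfactory receptor genes) in colony No.8, while each of the other pairs of symbols nearly coincides.

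The bases before the start of Cd55 and Pros1 are shown because these members differed between the colonies, and those of C1r because it was well above the floor in both and did not differ. The windows come from the RefSeq promoter table (GRCr8), which matched 5 of the 8 genes: Cd55, Cd46, C1r, C3 and Pros1. Each holds the 250 bases before the start that the table uses, 5′ to 3′ on the strand of the gene. Capitals mark matches, on either strand, to the half-site of a cyclic AMP response element (TGACG), the AP-1 motif (TGANTCA), the SP1 motif (GGGCGG) and the TATA box (TATAAA). Cd55 lies on the minus strand at chr13:44438102-44438351, Pros1 on the plus strand at chr11:13677049-13677298 and C1r on the plus strand at chr4:159098763-159099012.
Cd55: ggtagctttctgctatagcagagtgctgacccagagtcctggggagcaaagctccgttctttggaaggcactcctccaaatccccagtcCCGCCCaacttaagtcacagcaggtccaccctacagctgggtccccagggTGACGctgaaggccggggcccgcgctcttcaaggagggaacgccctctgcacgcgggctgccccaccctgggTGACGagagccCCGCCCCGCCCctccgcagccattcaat
Pros1: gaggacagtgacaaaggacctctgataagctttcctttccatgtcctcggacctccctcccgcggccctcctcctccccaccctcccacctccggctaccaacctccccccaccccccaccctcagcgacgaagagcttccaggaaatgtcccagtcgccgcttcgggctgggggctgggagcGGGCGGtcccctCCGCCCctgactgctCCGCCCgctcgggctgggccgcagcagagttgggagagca
C1r: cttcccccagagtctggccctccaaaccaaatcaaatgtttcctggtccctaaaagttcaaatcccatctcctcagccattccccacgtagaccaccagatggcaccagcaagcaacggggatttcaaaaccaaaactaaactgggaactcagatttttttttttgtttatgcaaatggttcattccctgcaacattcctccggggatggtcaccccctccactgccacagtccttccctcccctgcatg

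The Cd55 window held 2 half-sites of the cyclic AMP response element, beginning 111 and 39 bases before the start, and 3 SP1 matches at 161, 28 and 23 bases. The 2 SP1 matches nearest to the start share a base. Pros1 held 3 SP1 matches, at 67, 55 and 40 bases, and no half-site. C1r and C3 held none of the motifs, and Cd46 held 1 AP-1 match at 138 bases. Among 33469 promoter windows of the same length, 18.2% held TGACG, 30.5% GGGCGG, 6.34% TGANTCA and 12.9% TATAAA. The windows of Cd55 and Pros1 were 64.4% and 68.4% G and C, that of C1r 49.6%, and the median window 51.2%. In the RefSeq gene table the start of Cd55 lies 812 bases, that of Pros1 989 bases and that of Cd46 134 bases from the start used here. These windows thus stand before 1 of the possible starts. A match of letters is a description and not a bound site.

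Cd55, the membrane inhibitor of the convertases, was at 4.09 in colony No.4, against 8.43 in colony No.8. It was below the floor in the first and well above it in the second, and its difference of 4.34 was the third largest in that direction among the genes past the floor. In deposited values that is 20.2-fold. No detection call was used here, so a level below the floor cannot be told from background. The bound from the floor was at least 17.2-fold, higher in No.8. Olfactory receptor genes, which few cells outside the nose use, give a stricter guide to background. Their 99th percentile was 5.67, and counted from there Cd55 was at least 6.76-fold higher.

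Cd46 was at 4.54 in colony No.4, against 4.57 in colony No.8. Both levels were just past the floor and under 5.67, in the range of background-like genes. In rodents Cd46 is known mainly from the testis, and the complement inhibitor found widely on rodent cells is Crry, the product of Cr1l. Cr1l was at 6.39 and 6.53, above 5.67 in both colonies, with a difference of 0.14. The RefSeq gene table gives Cd59 as an older name of Cd59b, which the array measured and the choice of members by symbol left out. Cd59b, named here for that reason, was at 3.33 and 2.84, below the floor in both colonies. Of the membrane inhibitors measured, Cd55, chosen for its difference, reached 2-fold and the others did not. Cd46 and Cd59b were at levels where a difference might not show, so of the others only Cr1l allows a comparison.

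The remaining membrane proteins of this kind were Cr2, Vsig4, Csmd1, Csmd3 and Susd4. Cr2, the receptor for C3 fragments on B cells, was at 2.72 and 2.87. Vsig4, a C3b receptor of tissue macrophages, was at 2.63 and 3.05. Csmd1 (3.70 and 3.87), Csmd3 (2.86 and 2.78) and Susd4 (3.29 and 3.67), which carry the short consensus repeats typical of complement regulators, were dim as well. All 5 lay below the floor in both colonies. Of the 9 genes of the membrane list that were measured, 3 were past the floor: Cd55, Cd46 and Cr1l.

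CD55 and CD59 are held in the membrane by a glycosylphosphatidylinositol (GPI) anchor, so the genes that build this anchor were described too. Of 24 measured, 23 were past the floor and 0 differed by 2-fold, with a median difference of 0.08. The largest differences were those of Piga, the catalytic subunit of the opening step, at 6.26 and 5.40, and of Pigh, a subunit of the same enzyme, at 4.64 and 5.42. Pign, which adds a side group to the anchor, was at 6.01 and 5.29, and Pigb, a mannosyltransferase, at 3.78 and 4.44. These 4 differed in both directions, by 1.58-fold to 1.81-fold in deposited values. Pigh and Pigb, higher in No.8, were under 5.67 in both colonies, and counted from the floor Pigb differed by 1.08-fold. Piga and Pign, higher in No.4, were above 5.67 in that colony only. Pigt, a subunit of the transamidase that joins the anchor to proteins, was at 9.68 and 10.19 and is named after its values were seen.

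C1r, the protease that starts the classical cascade, was at 8.03 in colony No.4, against 8.08 in colony No.8. It was far past the floor in both, and its difference of 0.06 was 1.04-fold. C1s, the protease that C1r activates and that cleaves C4 and C2, was at 5.74 and 6.10. It was slightly higher in colony No.8 (difference 0.37, 1.29-fold), with both levels above 5.67. Their inhibitor Serping1 was at 2.95 and 3.07, below the floor in both colonies. C3, the component shared by all routes, was at 3.95 and 4.05, again below the floor in both. So C1r was measured well above background-like levels and C1s only just above 5.67 in colony No.4, whereas C3 and the C1 inhibitor were below the floor.

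The other genes of the cascade were mostly dim and differed little. Counts of 2-fold genes in these short lists are not read as a result, since 5.47% of all genes past the floor reached 2-fold. In the classical list 5 of the 6 measured genes were past the floor and 0 differed by 2-fold. C1qa was at 4.70 and 4.60, C1qc at 4.34 and 4.58, and C1rl, a relative of C1r, at 4.25 and 4.34, all under 5.67. In the lectin list 5 of the 8 measured genes were past the floor, 0 differed by 2-fold, and all levels were under 5.67. The largest differences past the floor were those of the protease gene Masp1 (3.82 and 4.41) and of the ficolin gene Fcna (4.46 and 4.96), followed by Mbl1 (4.45 and 4.58) and Colec11 (4.60 and 4.69). In the alternative list, Cfp, which encodes the convertase stabiliser properdin, was the only gene past the floor (5.03 and 4.95). In the terminal list that gene was C8g (6.60 and 6.42), a subunit of the membrane attack complex that belongs to the lipocalin family. Genes missing from these counts, such as C2, C4a and C4b, had no feature of their own symbol and are not analysed here.

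Fluid-phase regulators were below the floor in both colonies in 7 of 8 measured cases. These were Serping1, C4bpa (3.51 and 3.82), C4bpb (2.86 and 2.91), Vtn (3.36 and 3.53), Cpn1 (3.49 in both), Cpn2 (3.18 in both) and Cpb2 (2.51 and 2.92). C4bpa and C4bpb encode the chains of C4b-binding protein, the plasma partner of protein S. The exception was Clu, whose product clusterin inhibits the terminal complex and acts as an extracellular chaperone. Clu was at 4.97 in colony No.4, against 6.40 in colony No.8, 2.70-fold higher in the second in deposited values. Counted from 5.67, its difference was at least 1.65-fold.

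Among complement receptors, Cd93, a surface glycoprotein once described as a C1q receptor, went the opposite way to Cd55. Cd93 was at 8.90 in colony No.4, against 6.87 in colony No.8, with both levels above 5.67, and was 4.10-fold higher in No.4. C1qbp, a mostly mitochondrial protein that binds C1q, was at 8.55 and 8.09, and Calr, the chaperone calreticulin, at 10.42 and 10.54. The myeloid receptor genes C3ar1, Itgam, Itgax and Itgb2, named after their values were seen, were below the floor in both colonies.

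Pros1, which encodes protein S, was at 3.90 in colony No.4, against 7.13 in colony No.8. As for Cd55, the level was below the floor in the first and above 5.67 in the second. The difference of 3.23 was the ninth largest in that direction. It was 9.37-fold in deposited values, at least 6.99-fold counted from the floor and at least 2.75-fold counted from 5.67. Thbd, the thrombin receptor of the protein C system, was at 3.04 and 3.03. It was below the floor in both colonies, so of the anticoagulant members Pros1 was past the floor in colony No.8 and Thbd was not.

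The partners of protein S in the protein C system differed far less. Proc, protein C itself, was at 4.71 and 4.90, under 5.67. Procr, its endothelial receptor, was at 5.71 and 5.27. Of the other inhibitors of clotting, Tfpi, which blocks tissue factor, was at 6.53 and 6.86, and Anxa5, which shields phosphatidylserine, at 10.40 and 10.58. Serpine2, a protease nexin that inhibits thrombin and is made by glia, was at 11.54 in colony No.4, against 10.71 in colony No.8, 1.78-fold higher in the first. Serpinc1, the gene of antithrombin (3.70 and 3.74), Serpind1 (3.61 and 3.46), Serpina5 (2.89 and 2.98) and Tfpi2 (2.80 and 3.07) were below the floor in both colonies. Of 11 anticoagulant genes measured, 6 were past the floor and Pros1 alone differed by 2-fold.

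Protein S also signals through TAM receptor kinases, and it must be carboxylated with vitamin K to bind membranes. Of the receptors that bind protein S, Tyro3, named after its values were seen, was at 3.82 and 4.32. Tyro3 was below the floor in both colonies, by very little in No.8. Mertk was at 5.51 and 5.68. Axl, which binds mainly the related ligand Gas6 and is named after its values were seen, was at 10.15 and 10.07. Gas6, named in the same way, was at 3.73 and 3.53, below the floor in both. The carboxylase gene Ggcx was at 8.25 and 7.90 and the vitamin K reductase gene Vkorc1 at 7.26 and 6.98. Both were well past 5.67 in both colonies and slightly lower in colony No.8, by 1.27-fold and 1.22-fold. Vkorc1l1 of the same list, named after its values were seen, went the other way, at 8.02 and 8.16.

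On the procoagulant side, F3, which encodes tissue factor, the cell-surface trigger of clotting, was at 10.79 in colony No.4, against 8.67 in colony No.8. F3 was 4.33-fold higher in No.4, the direction opposite to that of Pros1, and both levels were far above 5.67. Of 17 clotting factor genes measured, 4 were past the floor: F3, F8 (5.05 and 5.06), F10 (4.35 and 4.59) and F12 (4.39 and 4.67). The last 3 of these were under 5.67 in both colonies. Of the thrombin receptor family, F2r, the main thrombin receptor, was at 9.33 and 9.77, and F2rl2 at 6.90 and 6.41.

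**Figure D2:**
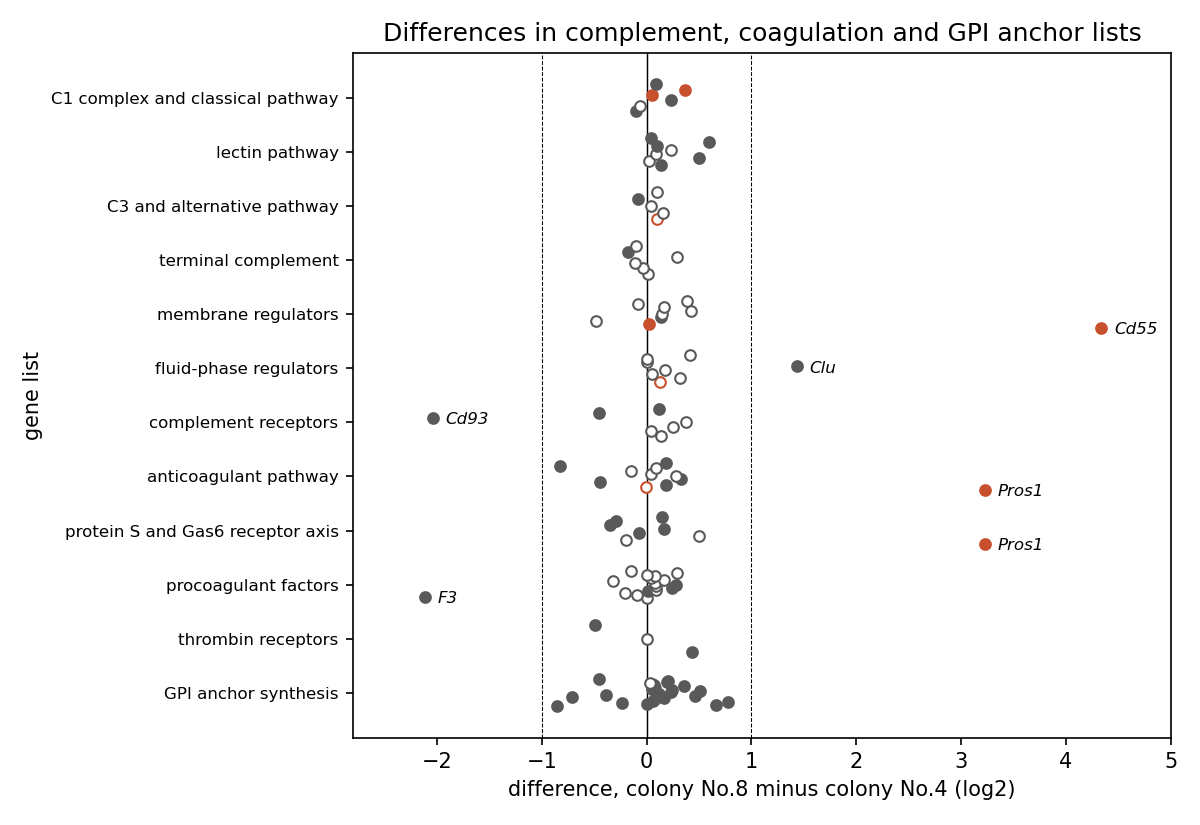
Difference (log2, colony No.8 minus colony No.4) of each measured gene, 1 row per list; filled symbols are past the floor, open symbols are below it in both colonies, and orange marks the members. Cd55, Pros1 (in 2 lists) and Clu lie beyond the dashed 2-fold line at the right, and F3 and Cd93 beyond it at the left.

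Without the members, these lists held 103 measured genes, of which 54 were past the floor. Of these 54, 1 reached 2-fold towards No.8 (Clu) and 2 towards No.4 (F3 and Cd93), together 5.56%. Over all genes past the floor 5.47% differed by 2-fold in either direction, so the share in the lists was near that background. The median difference of the 54 genes was 0.09.

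**Figure D3:**
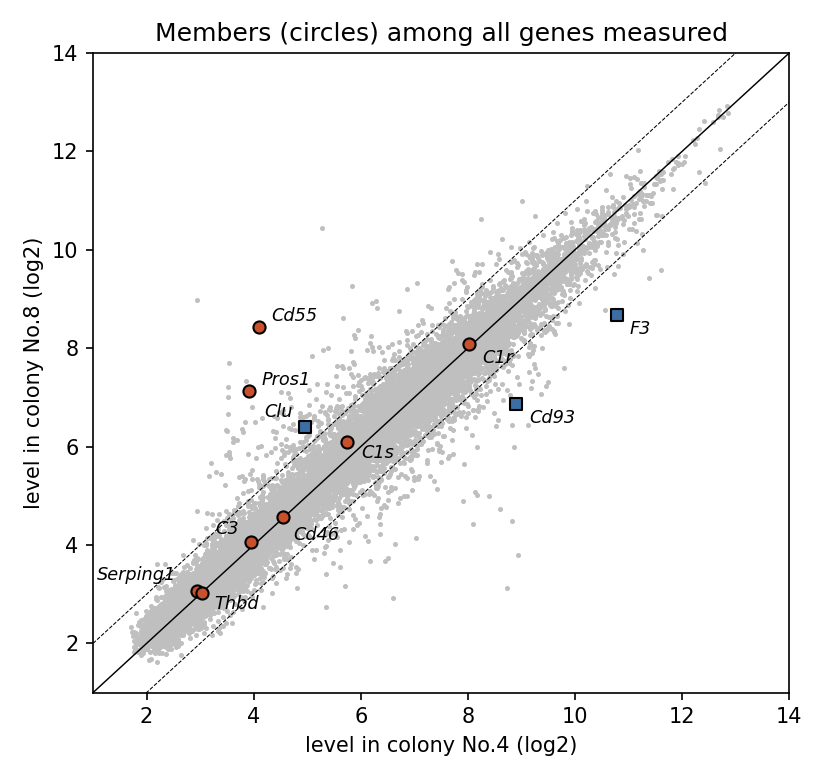
Level (log2) in colony No.8 against that in colony No.4 for 18166 genes (grey), with the 8 members as orange circles, Clu, F3 and Cd93 as blue squares, the line of equality and dashed 2-fold lines. Cd55 and Pros1 stand at the upper left, and the other 6 members lie close to the line of equality.

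The genes whose pair of levels was nearest to that of Pros1 were St6gal1, a sialyltransferase gene (3.99 and 7.17), Fmr1nb, a cancer-testis gene (3.86 and 7.34), and Fgf1, which encodes an acidic fibroblast growth factor (3.97 and 6.81). Nearness was the Euclidean distance over the 2 levels, from 0.09 to 0.33 log2 units. Those nearest to Cd55 were the cancer-testis gene Ct55 (3.54 and 7.70), Fmr1nb again, and the interferon-induced gene Samd9l (5.09 and 7.83), at distances of 0.91 to 1.16. Such likeness rests on 2 numbers per gene, and because levels of different genes come from different probes, equal levels do not mean equal amounts of RNA; nothing is read from these names.

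Within 5 places of Cd55 and Pros1 on the chromosome, most measured genes differed by less than 2-fold. Over all genes past the floor 5.47% differed by 2-fold in either direction. Of the 10 measured genes nearest to Cd55 in the RefSeq gene order, 5 on each side, 5 were past the floor and 1 differed by 2-fold: Mcm6, a subunit of the replicative helicase (7.97 and 9.13). Thsd7b, directly before Cd55, was at 3.83 and 3.99, and Zp3r, directly after it, at 3.42 and 3.37, all below the floor. C4bpa and C4bpb, which stand in the same cluster of complement regulator genes, follow Zp3r and were below the floor as given above. The others were Cxcr4 (4.47 and 4.63), Lct (3.04 and 3.10), Ubxn4 (8.11 and 8.52), Pfkfb2 (4.75 and 5.63) and Yod1 (6.12 and 5.83). Thsd7b and Zp3r, the direct neighbours, differed by 0.16 and -0.04. Farther along, at 8 places, Zranb3, which encodes a helicase of stalled replication forks (4.68 and 5.93), differed by 2-fold or more towards No.8.

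Near Pros1, 7 measured genes stood within 5 places, because only 2 preceded it on its chromosome in the gene order. Of the 7, 4 were past the floor, among them a ribosomal RNA gene, and 0 differed by 2-fold. Stx19, directly before Pros1, was at 3.16 and 2.61, and Epha3, directly after it, at 3.26 and 3.31. Csnka2ip was at 3.02 and 3.32, C11h3orf38 at 6.78 and 7.18, Zfp654 at 6.68 and 6.29, and Cggbp1 at 7.83 and 8.03. Farther along, at 9 and 10 places, Vgll3, a cofactor of TEAD transcription factors (6.86 and 9.20), and Robo1, a receptor of axon guidance (8.11 and 9.49), differed by 2-fold or more towards No.8.

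**Figure D4:**
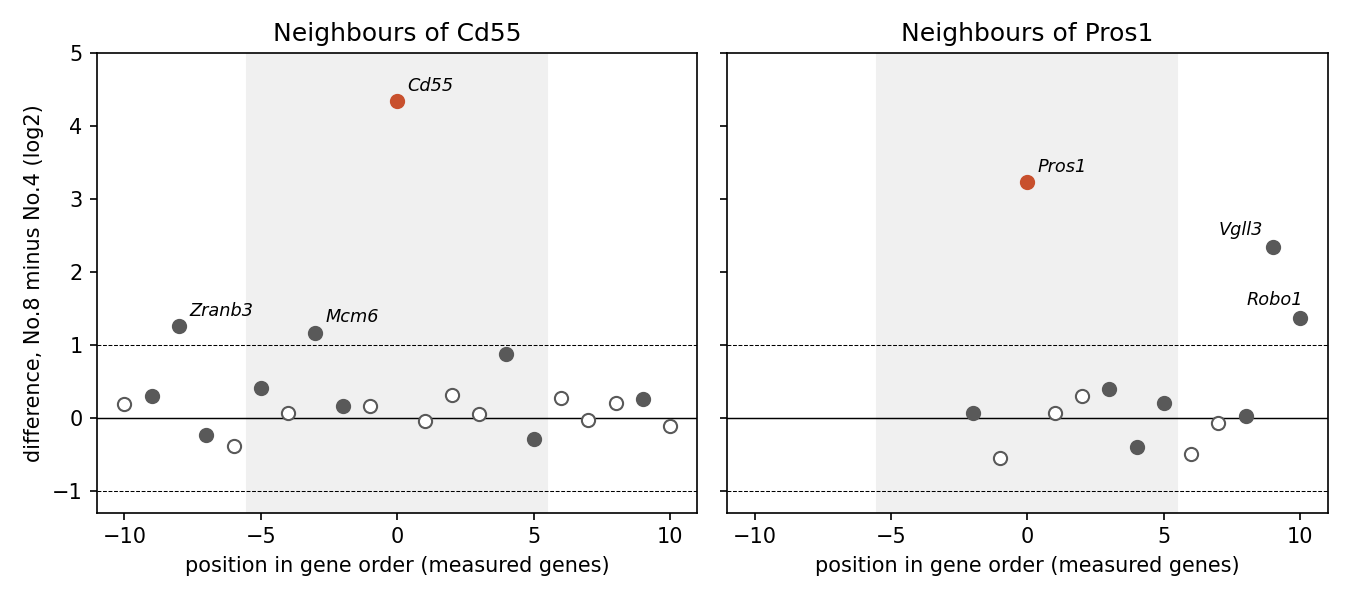
Difference (log2, colony No.8 minus colony No.4) of the measured genes around Cd55 and Pros1 against their place in the gene order; filled symbols are past the floor, open symbols below it in both colonies, and grey shading spans 5 places on each side. Of the genes in the shaded spans other than Cd55 and Pros1, Mcm6 alone is beyond the dashed 2-fold lines.

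Markers of cell types that make these proteins in the body were examined beside the members. Of 8 microglia and macrophage markers, 6 were below the floor in both colonies, among them Ptprc, Cx3cr1 and Itgam. The exceptions were Tmem119, at 6.48 and 6.19 and so above 5.67 in both, and Cd68, at 4.62 and 4.07. The mean level of the list was 3.81 in colony No.4 and 3.68 in colony No.8. Of 4 endothelial markers measured, 3 were below the floor in both (Cdh5, Vwf and Emcn); Tek was at 4.84 and 5.97. The list mean was 4.11 and 4.38, and of the 4 genes Tek alone differed by more than 0.14. The 3 hepatocyte markers and the 4 platelet markers measured were all under 5.67, with list means of 3.85 and 3.84 for hepatocytes and 4.07 and 4.26 for platelets. Among fibroblast markers, Dcn and Lum were below the floor, while Col1a1, a collagen I chain, was at 8.25 and 10.64 and Col3a1, of collagen III, at 4.61 and 5.08. The fibroblast list mean was 4.47 and 5.28. The endothelial, platelet and fibroblast means were thus higher in colony No.8, and the microglial, hepatocyte and glioma means lower (glioma 8.32 and 8.14). The fibroblast rise was largest for Col1a1 (2.38), and Emcn, Ppbp and Lum were lower in No.8. The endothelial, platelet and fibroblast means mix in levels near background, so nothing is read from them. Any part of such cells in the differences of Cd55 and Pros1 was not tested. Of the glioma and astroglial markers, S100b, Nes, Vim and Sox2 were above 5.67 in both colonies. Gfap, the astrocytic filament gene, was at 4.11 and 5.17, and Olig2 at 6.36 and 4.22.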

How the data were processed

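The table deposited by the authors holds log2 levels of 36685 features, 1 array a colony, taken without further scaling. The sources used here do not name the software or the background correction, normalization and summarization behind it. Base 2 was inferred, because values reach 13.3, above the natural log of any 16-bit signal. Per the labels' protocols, biotin-labelled sense cDNA was hybridized. The platform annotation gave 18511 features exactly 1 symbol, 575 several and 17599 none; the last 2 kinds were left out. All 8 measured members were found by gene identifier in the RefSeq gene table (GRCr8), used for names and gene order.

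Levels of different genes come from different probes, which limits the floor, the olfactory receptor guide, the list means and the distances between genes, all of which set them side by side. The number of arrays limits the precision. Counts used Python 3.11.15 with pandas 2.3.3 and were tested on simulated data. Named were all members, the 4 largest differences past the floor per list, every gene of the membrane, fluid-phase and anticoagulant lists, the 3 genes nearest in level, neighbours, and markers from the fixed cell type lists, without placeholder symbols and 1 ribosomal RNA gene; others are marked. The members and lists were chosen with earlier results of these data known. Alternatives covered scaling, offset, feature, floor, fold size and span of neighbours.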

Additional observations from a re-analysis of the deposited data

How the results depend on the processing

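Cd55 and Pros1 remained the 2 members at least as far apart as the threshold under each of 12 alternatives, and both were higher in colony No.8 in each. Of these, the mean over features and the lowest feature could not change the call, since each member had 1 feature. The 1.5-fold threshold and the absence of a floor could add a member but not lose one. Under the scalings (centring, quantile normalization, loess) Cd55 differed by 4.29 to 4.36 log2 units and Pros1 by 3.18 to 3.23. Their size depended on how dim levels were treated. With an offset of 64 the differences were 2.33 for Cd55 and 1.37 for Pros1, with levels raised to the floor 2.81 for Pros1, and with levels raised to the olfactory receptor percentile 2.76 for Cd55 and 1.46 for Pros1; these alternatives by construction shrink a difference that starts below the floor. Differences of the other 6 members stayed within 0.39 log2 units, a robust spread of all differences past the floor, of their main values. The sign of the Cd46 difference varied with the scaling (-0.03 to 0.06). At 1.5-fold the related genes counted 9 in place of 3. The share of all genes at 1.5-fold was not counted, so nothing is read from that rise. With up to 10 genes on each side the neighbours at 2-fold were 4 in place of 1, all towards No.8. They were 2 of the 9 genes past the floor near Cd55 and 2 of the 7 near Pros1. Over all genes past the floor 5.47% differed by 2-fold in either direction. Why these neighbours differed was not tested. With levels raised to the olfactory receptor percentile, Clu no longer reached 2-fold. No paired analysis was possible because each colony had 1 array. Without detection calls, levels under 5.67 may lie near background.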

Other observations

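Of the 18166 genes measured, 635 had the same deposited value in both colonies to every decimal given. They made up 1.31% of the genes past the floor and 6.9% of those below it. In the complement, coagulation and GPI anchor lists they were Cpn1, Cpn2, F2, Vwf, F2rl1 and Pigc, named after their values were seen.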
